A study of Mus musculus with 2 samples.

Results

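The transcripts of 9 m6A reader genes were followed through the immune cells of B16 melanoma, a mouse tumour grown under the skin. The readers are Ythdf1, Ythdf2, Ythdf3, Ythdc1, Ythdc2, Hnrnpa2b1, Hnrnpc, Igf2bp2 and Igf2bp3. They were taken by symbol from the 31053 genes of the count matrix, and each symbol matched 1 row. Mice were 8 weeks old and carried Mettl3 fl/fl in both groups. WT mice were Lyz2 +/+ and KO mice Lyz2 cre/+, so that Cre was driven from the lysozyme locus, which is active in macrophages, monocytes and granulocytes and in part of the dendritic cells. Live CD45+ cells were sorted from the tumours, and 1 droplet library was made per genotype from pooled mice, which leaves no replicate and no test between genotypes.

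N6-methyladenosine (m6A) is a methyl mark that METTL3, with METTL14 and WTAP, places on adenosines of messenger RNA. Reader proteins bind marked RNA or RNA whose folding the mark has loosened. YTHDF1, YTHDF2 and YTHDF3 are cytoplasmic proteins with a YTH domain, and YTHDF2 recruits the CCR4-NOT deadenylase, which shortens the poly(A) tail and starts decay. YTHDC1 is the nuclear YTH protein, YTHDC2 carries an RNA helicase domain, HNRNPA2B1 and HNRNPC are nuclear RNA-binding proteins, and the IGF2BP proteins protect bound messenger RNA. The data hold transcripts only, so that neither reader protein nor m6A itself was measured.

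The library labelled WT had 5895 cell barcodes and 45963969 unique molecular identifiers (UMIs, each standing for 1 captured transcript), and the library labelled KO had 8446 barcodes and 54052317 UMIs. After filtering, 5405 and 7625 cells remained, with a median of 4148 and 3567 UMIs. The libraries shared 13 barcode sequences. Cells were assigned to 11 classes by fixed markers. Mettl3, the targeted gene, was at 9.77 UMIs per 1000000 UMIs in macrophage-gated cells of the library labelled WT (95% exact Poisson interval 8.41 to 11.3) and at 10.7 in the library labelled KO (9.25 to 12.3). This level was therefore not lower in the library labelled KO. The 3' tags of Mettl3 need not lie in its deleted part, in which case they check nothing. Lyz2, of which KO mice carry Cre in 1 allele, was at 6076 and 2669 in the same cells and unit, 0.439-fold in the library labelled KO. The libraries are called by their labels. All levels below are UMIs of the gene per 1000000 UMIs of the class (UPM), and the libraries are named the WT-labelled and the KO-labelled library. Where a class gave 0 UMIs of a gene, the limit given is the level that 3 UMIs would have made. Intervals are 95% and, like these limits, cover counting error only, because cells of 1 library are not replicates.

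Over all kept cells the readers spanned more than 2 orders of magnitude. Hnrnpa2b1 was the most abundant, with 540 UPM in the WT-labelled library and 535 in the KO-labelled library, and gave 56.6% and 54.7% of all reader UMIs. Hnrnpc followed with 158 in each library. Ythdc1 had 83.0 and 87.8, Ythdf2 56.4 and 59.7, Ythdf3 50.2 and 54.0, and Ythdf1 36.7 and 44.4. The rarest were Ythdc2 with 14.8 and 15.7, Igf2bp2 with 11.5 and 19.0, and Igf2bp3 with 4.11 and 4.36. The third IGF2BP gene, Igf2bp1, which is not among the 9, gave 29 and 25 UMIs in all, of which 26 and 24 were in melanoma-gated cells. The order of the 9 differed between the libraries only in that Ythdc2 and Igf2bp2 changed places. Igf2bp2 was the reader with the largest ratio between them.

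**Figure D1:**
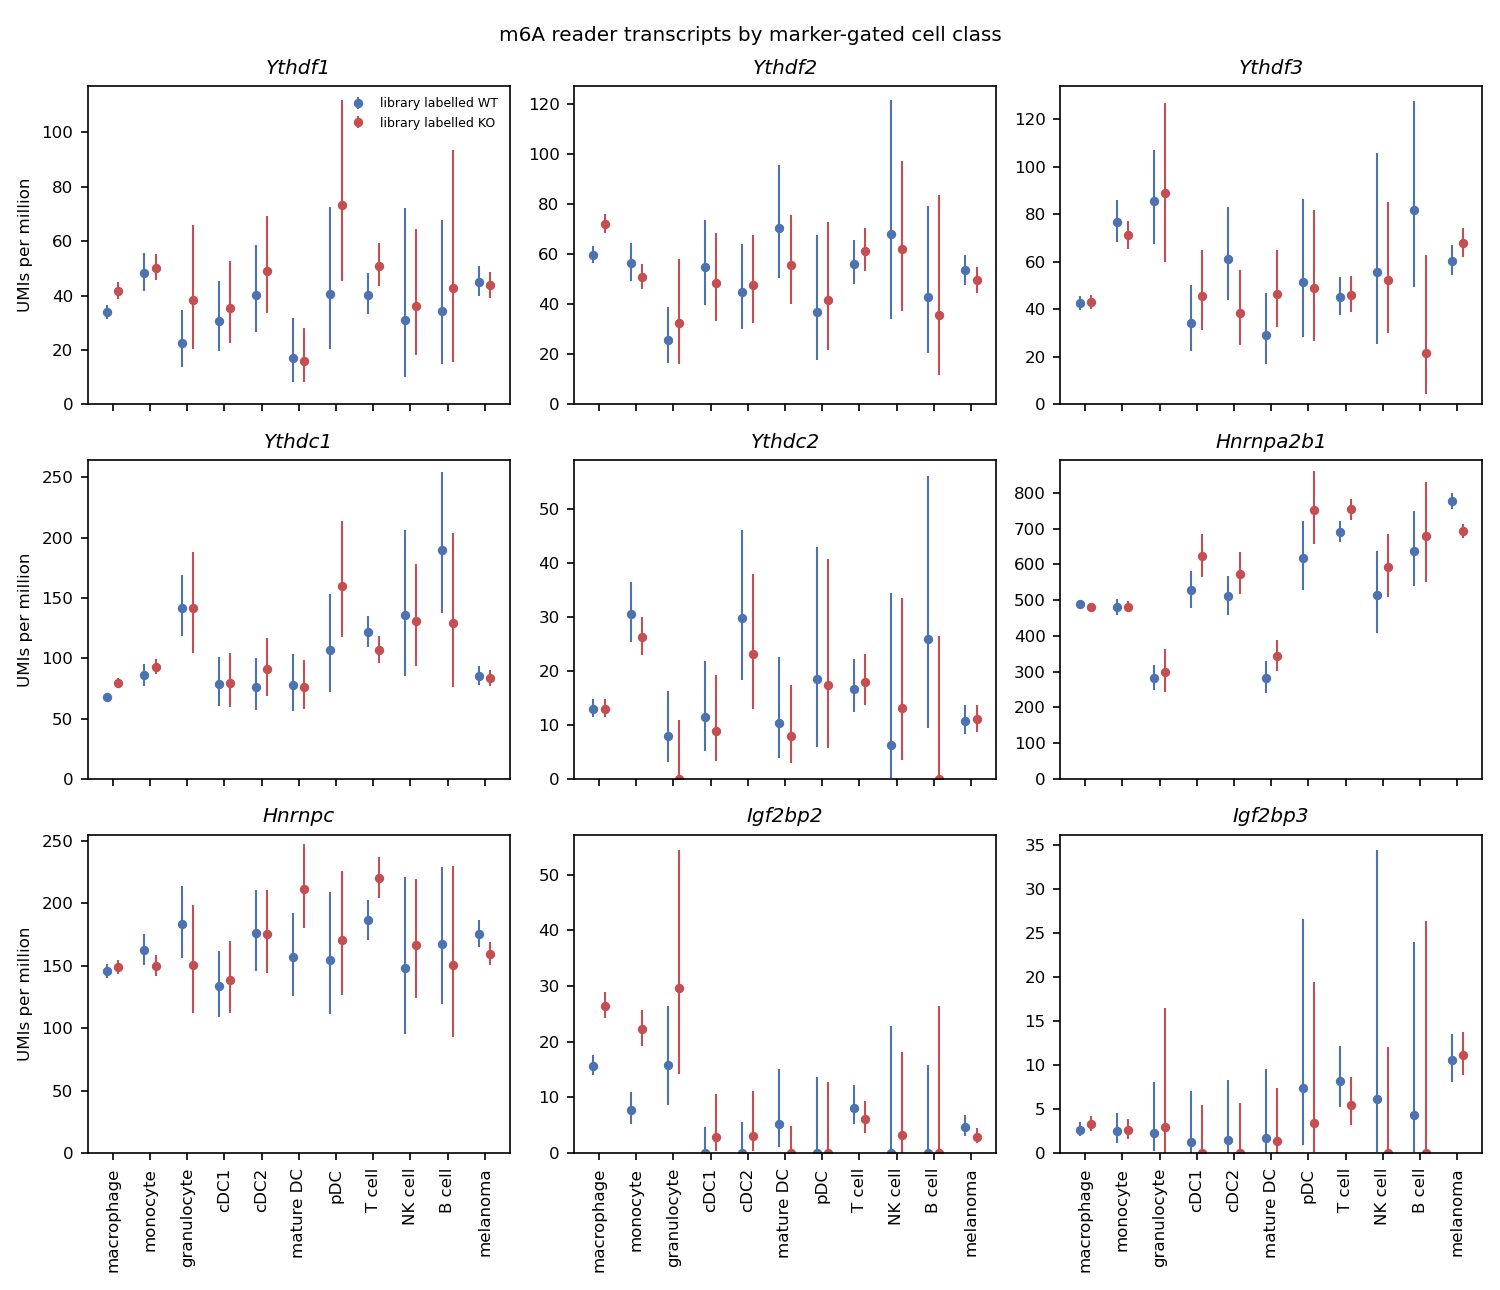
Level of each reader (UPM, linear axes from 0) in 11 marker-gated cell classes, with 95% exact Poisson intervals that cover counting error only; blue, WT-labelled library; red, KO-labelled library. Hnrnpa2b1 was lowest in granulocytes and mature dendritic cells. Ythdf3 was highest in granulocytes, with intervals that overlap those of monocytes. Igf2bp2 stood at 15.7 and 26.5 in macrophages but gave only 0 to 3 UMIs in each dendritic and B cell class.

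The classes were large for macrophages (1730 and 2242 cells in the WT- and KO-labelled libraries), monocytes (814 and 2152), T cells (646 and 827) and granulocytes (562 and 254). Melanoma-gated cells numbered 126 and 202 although the sort was for CD45+. The 6 other classes, conventional dendritic cells 1 and 2 (cDC1, cDC2), mature dendritic cells, plasmacytoid dendritic cells (pDC), NK cells and B cells, held 63 to 154 cells each. The class with the highest level was the same in both libraries for 5 of the 9 readers, a count that fell to between 1 and 4 under most other ways of processing. In an order of the 11 classes by level, 10 pairs of classes are neighbours. For 8 of the 9 readers no such pair had intervals apart in both libraries, and for Hnrnpa2b1 1 pair did. The orders are therefore coarse, and the contrasts below set large classes against macrophages.

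Ythdf1, whose protein is linked to translation of m6A-marked transcripts, was higher in monocytes than in macrophages. Its level was 33.9 UPM in macrophages of the WT-labelled library (31.3 to 36.6) and 41.8 in the KO-labelled library (38.9 to 44.8). Monocytes had 48.2 and 50.2, with log2 ratios over macrophages of 0.51 (0.27 to 0.75) and 0.27 (0.09 to 0.44). T cells had 40.3 and 50.9, and melanoma-gated cells 45.0 and 43.7. Granulocytes had 22.5 (13.7 to 34.8) and 38.5 (20.5 to 65.8), below the monocytes with intervals apart in the WT-labelled library only. Mature dendritic cells were lowest in both libraries, with 17.2 (10 UMIs) and 15.98 (12 UMIs). The highest class was the monocytes in the WT-labelled library and the pDC in the KO-labelled library, at 73.2 from 21 UMIs.

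Ythdf2, the reader tied to decay, was lowest in granulocytes, at 25.9 UPM (16.4 to 38.8) and 32.6 (16.3 to 58.2). Macrophages had 59.8 (56.4 to 63.4) and 72.3 (68.5 to 76.3). Granulocytes were below macrophages by a log2 ratio of -1.21 (-1.87 to -0.62) and -1.15 (-2.16 to -0.31) in the WT- and KO-labelled libraries. Monocytes had 56.5 and 50.9, with log2 ratios over macrophages of -0.08 (-0.30 to 0.12) and -0.50 (-0.66 to -0.35), so that they were lower in the KO-labelled library. T cells had 56.3 and 61.5.

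Ythdf3 had the opposite place in granulocytes. It was highest there, at 85.5 UPM (67.4 to 107) and 88.8 (59.9 to 127), against 42.6 (39.7 to 45.7) and 42.9 (39.9 to 45.9) in macrophages. Monocytes stood between them with 76.7 (68.4 to 85.8) and 71.0 (65.5 to 76.9). These intervals overlap those of granulocytes in both libraries, so that monocytes and granulocytes could not be told apart. The granulocyte over macrophage log2 ratio of Ythdf3 was 1.005 (0.65 to 1.35) in the WT-labelled library and 1.05 (0.47 to 1.58) in the KO-labelled library. Thus, within the family of 3 cytoplasmic YTH readers, granulocytes had more Ythdf3 and less Ythdf2 than macrophages in each library. Of 10009 genes with at least 50 UMIs over the compared cells, 47.7% were past 1.5-fold lower in granulocytes in both libraries and 14.9% higher. A lower level there was therefore common among genes. The 10 granulocyte markers alone made up 157939 and 132230 UPM of granulocytes, and their part in these ratios was not tested.

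Ythdc1, the nuclear YTH reader, was at 67.6 UPM in macrophages of the WT-labelled library (63.9 to 71.4) and 79.5 in the KO-labelled library (75.4 to 83.6). T cells had 122 (109 to 135) and 107 (96.1 to 119), and granulocytes 142 in each (118 to 169 and 105 to 188). B cells of the WT-labelled library reached 189 from 44 UMIs, and pDC of the KO-labelled library 160 from 46 UMIs. T cells and granulocytes were thus above macrophages in both libraries, with intervals apart.

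Ythdc2, the helicase, was highest in monocytes. It was at 30.5 UPM in monocytes of the WT-labelled library (25.3 to 36.4) and at 26.3 in the KO-labelled library (23.0 to 29.98). The cDC2 followed with 29.9 (20 UMIs) and 23.0 (15 UMIs). Macrophages had 12.98 and 12.95. The monocyte over macrophage log2 ratio was 1.23 (0.91 to 1.55) and 1.02 (0.75 to 1.29). Granulocytes gave 7 UMIs in the WT-labelled library and 0 in the KO-labelled library, where 3 UMIs would have made 8.88 UPM.

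Hnrnpa2b1, which also takes part in splicing and in RNA sorting, was highest in melanoma-gated cells of the WT-labelled library, at 777 UPM (754 to 799), and in T cells of the KO-labelled library, at 754 (725 to 784). Macrophages had 491 (481 to 501) and 482 (472 to 492), and monocytes 481 and 482, so that these 2 classes could not be told apart. Granulocytes had 281 (248 to 318) and 299 (243 to 363), and mature dendritic cells 283 (241 to 329) and 343 (303 to 388). T cells were above macrophages by a log2 ratio of 0.49 (0.42 to 0.56) and 0.65 (0.58 to 0.71).

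Hnrnpc, which coats nascent transcripts, was the most even reader. The mean over both libraries of its highest class was 1.49-fold that of its lowest. T cells were highest with 186 (171 to 203) and 220 (204 to 237) UPM, and cDC1 lowest with 134 (109 to 162) and 139 (112 to 170). Macrophages had 146 and 149.

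The count of readers past 1.5-fold was read beside the share of all genes past the same fold in the same contrast, which serves as the background. With at least 50 UMIs over the compared cells and the same direction in both libraries, 1 of 9 readers (Igf2bp3) was higher in T cells than in macrophages, against 21.7% of 10388 genes, and 1 (Igf2bp2) was lower, against 22.4%. For monocytes over macrophages 2 of 9 were higher (Ythdf3 and Ythdc2), against 11.8% of genes, and 0 were lower, against 15.5%. For granulocytes over macrophages 2 of 9 were higher (Ythdf3 and Ythdc1), against 14.9%, and 3 were lower (Ythdf2, Ythdc2 and Hnrnpa2b1), against 47.7%. Ythdc2 passed the minimum through its macrophage UMIs and was counted on 7 and 0 UMIs in granulocytes, with an interval in the WT-labelled library (-2.05 to 0.34) that holds 0. The interval of Igf2bp3 in T cells over macrophages of the KO-labelled library (-0.12 to 1.51) holds 0 as well, and the count of readers higher in T cells was 0 with size factors, with equal weight for each cell and when thinned, and 3 without mitochondrial, ribosomal protein and haemoglobin genes in the total.

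The IGF2BP genes are paralogues. Igf2bp2 lies on mouse chromosome 16 at 22059009 to 22163299 (GENCODE M21 on GRCm38, minus strand) and Igf2bp3 on chromosome 6 at 49085223 to 49214957 (minus strand). An exon of Igf2bp3 overlaps an exon of Malsu1 on the opposite strand. Because these 2 genes lay in opposite order between macrophages and melanoma-gated cells, the 250 bases before their RefSeq starts are shown (GRCm38.p6, written 5' to 3' on the minus strand). In capitals on either strand is ACGTG, a form of the core of hypoxia response elements that also lies within some E-boxes (CACGT is its reverse complement). Other forms of that core, such as GCGTG, are not marked.

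Igf2bp2, chr16:22163300-22163549: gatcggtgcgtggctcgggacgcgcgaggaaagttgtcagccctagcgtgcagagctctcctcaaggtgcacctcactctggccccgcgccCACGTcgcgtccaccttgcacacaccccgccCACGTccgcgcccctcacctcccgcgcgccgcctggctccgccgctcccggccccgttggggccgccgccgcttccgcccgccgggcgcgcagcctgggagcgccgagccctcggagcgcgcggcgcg
Igf2bp3, chr6:49214955-49215204: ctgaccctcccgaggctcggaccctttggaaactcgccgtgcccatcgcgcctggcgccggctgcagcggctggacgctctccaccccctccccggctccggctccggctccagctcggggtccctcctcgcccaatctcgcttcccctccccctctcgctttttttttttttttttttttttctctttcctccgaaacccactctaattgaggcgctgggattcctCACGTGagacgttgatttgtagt

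The Igf2bp2 window held 2 separate places with this motif, 159 and 128 bases before the start, and 77.2% G and C. The Igf2bp3 window held 1, a CACGTG 23 bases before the start in which both strands match, and 60.4% G and C. Of all 32851 promoter windows of this length 16.6% held the motif and 1.95% held it in 2 or more places. Among the 9178 windows with at least 60% G and C these shares were 23.0% and 3.28%. Windows were found for 7 of the 9 readers, and 5 of the 7 held the motif. The motif was chosen after the cell pattern of Igf2bp2 had been seen, and a match is a run of letters and not a bound site.

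Igf2bp2, which stabilises bound messenger RNA, was higher in macrophages than in T cells and melanoma-gated cells of both libraries. Macrophages had 15.7 UPM in the WT-labelled library (14.0 to 17.6, 294 UMIs) and 26.5 in the KO-labelled library (24.2 to 29.0, 491 UMIs). Monocytes had 7.75 (5.26 to 10.997, 31 UMIs) and 22.3 (19.2 to 25.7, 190 UMIs). Granulocytes had 15.8 from 14 UMIs in 8 cells, of which 1 cell gave 6, and 29.6 from 10 UMIs in 6 cells, of which 1 gave 4. In each of these classes the KO-labelled library was the higher one, with intervals apart in macrophages and monocytes and overlapping in granulocytes.

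T cells had 8.19 UPM of Igf2bp2 (24 UMIs) and 6.06 (20 UMIs), and melanoma-gated cells 4.70 (28 UMIs) and 2.99 (22 UMIs). These were lower in the KO-labelled library, with overlapping intervals. B cells and pDC gave 0 UMIs in both libraries, where 3 UMIs would have made 12.9 and 21.5 UPM in B cells and 11.1 and 10.5 in pDC. Dendritic cells of the cDC1 and cDC2 classes gave 0 UMIs in the WT-labelled library, where 3 UMIs would have made 3.82 and 4.48 UPM, and 2 UMIs each in the KO-labelled library. Free RNA in droplets reaches all classes, and Lyz2, a transcript of myeloid cells, was at 951 and 171 UPM in T cells, which is 0.157 and 0.0639 of its macrophage level. For Igf2bp2 the T cell level was 0.522 and 0.229 of the macrophage level.

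Igf2bp3 was highest in melanoma-gated cells, with 10.6 UPM (8.13 to 13.5, 63 UMIs) and 11.1 (8.86 to 13.8, 82 UMIs). T cells had 8.19 (5.25 to 12.2) and 5.45 (3.23 to 8.62), and macrophages 2.67 (1.98 to 3.52) and 3.29 (2.52 to 4.23). All other classes gave between 0 and 22 UMIs. Between macrophages and melanoma-gated cells the 2 paralogues thus lay in opposite order, with intervals apart in both libraries.

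To see whether readers differed between the genotypes, the KO-labelled library was set over the WT-labelled library within each class. In macrophages 1 of 9 readers was past 1.5-fold higher, Igf2bp2, against 2.47% of 10967 genes, and 0 were lower, against 1.94%. The log2 ratio of Igf2bp2 was 0.76 (0.54 to 0.97), a 1.69-fold difference. Ythdf1 had 0.30 (0.15 to 0.46), Ythdf2 0.27 (0.16 to 0.39) and Ythdc1 0.23 (0.12 to 0.34), all higher in the KO-labelled library by less than 1.5-fold and with intervals that left out 0. Genotype and library cannot be told apart here, and among all genes of macrophages 5% lay above a log2 ratio of 0.44 and 5% below -0.38. The median of the readers was 0.23 and that of all genes 0.015. Macrophage-gated cells of the WT-labelled library were deeper, with a median of 8591 UMIs against 6395. When each cell was given the same weight, the ratio of Ythdf1 was 0.17, that of Ythdf2 0.26 and that of Ythdc1 0.029.

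The other 5 readers in macrophages had intervals that hold 0. Ythdf3 had a log2 ratio of 0.01 (-0.14 to 0.15), Ythdc2 of -0.0026 (-0.27 to 0.26), Hnrnpc of 0.03 (-0.05 to 0.11) and Hnrnpa2b1 of -0.03 (-0.07 to 0.02). Igf2bp3 had 0.30, with an interval from -0.26 to 0.87. The Hnrnpa2b1 interval is the narrowest, from 9185 and 8922 UMIs.

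Among readers with at least 50 UMIs over both libraries, the largest ratio in macrophages, monocytes, granulocytes and T cells was that of Igf2bp2 in monocytes. It had a log2 ratio of 1.53 (0.97 to 2.12), a 2.88-fold difference, and was the 1 of 8 readers past 1.5-fold higher, against 3.46% of 9203 genes. None of the 8 was lower (0 of 8), against 3.62%. Ythdf1, at 0.06 (-0.19 to 0.31), and Ythdf2, at -0.15 (-0.38 to 0.09), did not repeat their macrophage ratios, and the difference between the classes was not tested. With each cell thinned to 1000 UMIs the Igf2bp2 ratio in monocytes was 0.61, from 9 UMIs in the WT-labelled library and 36 in the KO-labelled library.

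In T cells, which Lyz2 Cre does not target, 0 of 7 readers were past 1.5-fold higher, against 3.25% of 8439 genes, and 0 lower, against 2.95%. Hnrnpc was higher in the KO-labelled library by a log2 ratio of 0.24 (0.08 to 0.40). Hnrnpa2b1 was higher by 0.13 (0.04 to 0.21), and without cycling cells its ratio was -0.011. In melanoma-gated cells Hnrnpa2b1 had -0.16 (-0.22 to -0.11) and Hnrnpc -0.14 (-0.26 to -0.02), while Hnrnpa2b1 had 0.24 (0.04 to 0.44) in cDC1 and Hnrnpc 0.43 (0.05 to 0.82) in mature dendritic cells. Ythdf3 in B cells had -1.93 (-4.33 to -0.16), from 19 and 3 UMIs. In granulocytes 4 readers had enough UMIs, and 0 were past 1.5-fold higher or lower, against 10.8% and 6.21% of 2835 genes.

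**Figure D2:**
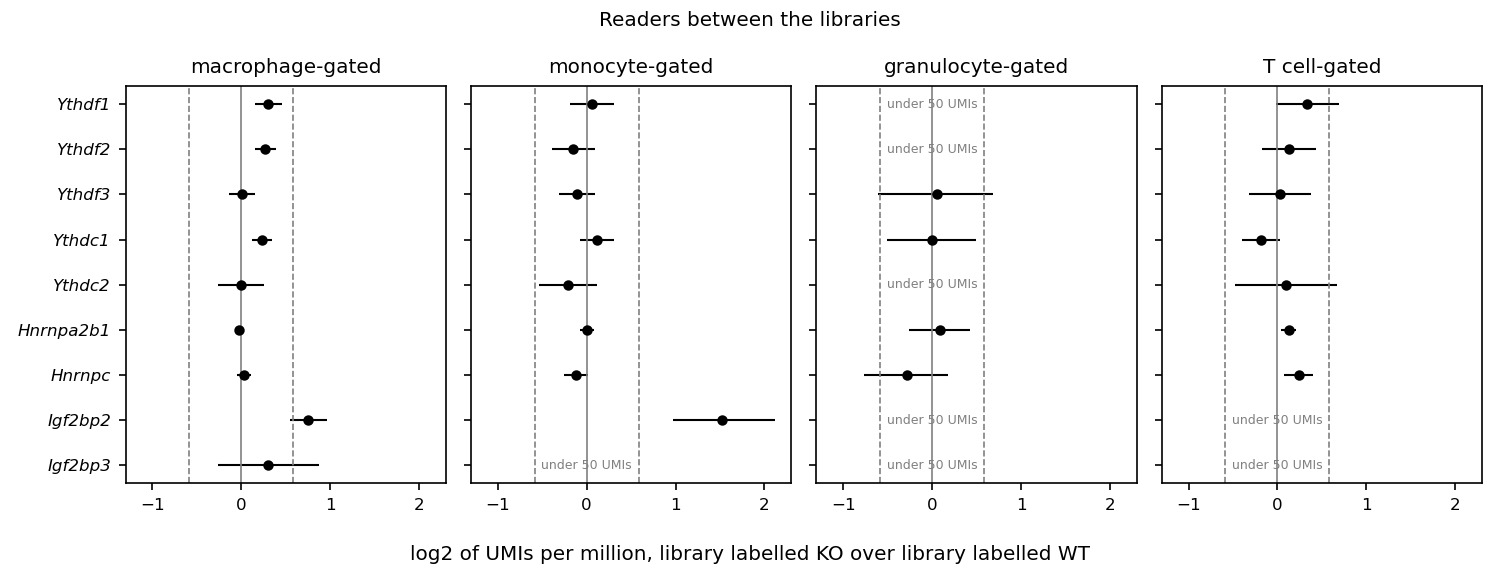
Log2 ratio of UPM, KO-labelled library over WT-labelled library, for each reader (rows) in 4 cell classes, with 95% exact conditional binomial intervals that cover counting error only; dashed lines mark 1.5-fold, and readers under 50 UMIs over both libraries are not drawn. Igf2bp2 lies past the dashed line in macrophages (0.76) and monocytes (1.53), and no other drawn reader does.

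Igf2bp2 was uneven among the cells of a class. All kept cells were grouped into 23 clusters without the readers among the genes used. Igf2bp2 was highest in 1 cluster, whose leading genes by fold were, in order, Mmp12, Inhba, Nos2, Arg1, Mmp13, Fabp4 and Egln3. Its level there was 57.9 UPM (50.3 to 66.5) in the WT-labelled library and 72.1 (65.4 to 79.3) in the KO-labelled library. The cluster held 8.07% and 12.6% of the kept cells, and 42.4% and 46.8% of the Igf2bp2 UMIs.

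Among macrophage-gated cells this cluster made up 304 of 1730 cells (17.6%) in the WT-labelled library and 552 of 2242 (24.6%) in the KO-labelled library. Inside it Igf2bp2 was at 62.6 UPM (53.5 to 72.9) and 69.4 (61.4 to 78.0), a log2 ratio of 0.15 (-0.13 to 0.43). Outside it the levels were 7.91 (6.59 to 9.41) and 14.8 (12.9 to 16.9), a ratio of 0.90 (0.58 to 1.23). With equal weight for each cluster of macrophage-gated cells the ratio was 0.47, and no reader was then past 1.5-fold. The cluster was chosen because Igf2bp2 was highest there, and the part of its share in the ratio was not tested.

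Monocyte-gated cells also had more Igf2bp2 inside the cluster than outside it, with fewer UMIs. The cluster held 43 of their cells (5.28%) and 210 (9.76%), where Igf2bp2 was at 40.6 UPM from 11 UMIs and 81.2 from 81 UMIs, a log2 ratio of 1.002 (0.09 to 2.06). Outside the cluster it was at 5.36 (3.28 to 8.28) and 14.5 (11.9 to 17.5), a log2 ratio of 1.43 (0.74 to 2.20). In the monocyte cluster led by Ifit genes, which are induced by interferon, the level was 14.5 from 4 UMIs and 42.7 from 50 UMIs. In the one led by Hpgd and Ace it was 0 and 3.56.

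Over the 10 clusters whose most frequent gate was macrophage, monocyte or granulocyte, Igf2bp2 was higher in the KO-labelled library in 9, and in 3 of the 10 the intervals did not overlap. The highest count in 1 cell was 8 UMIs, and in the Mmp12 cluster 125 and 282 cells had at least 1 UMI. Other marker lists moved in macrophage-gated cells too. The summed level of the 10 monocyte markers was 1096 UPM in the WT-labelled library and 1525 in the KO-labelled library, that of the 10 granulocyte markers 240 and 109, that of the 5 fibroblast markers 80.6 and 2.54, and that of the 5 erythroid markers 17.6 and 1.67. In monocyte-gated cells the same lists were at 7800 and 8306 (monocyte), 201 and 171 (granulocyte), 911 and 560 (fibroblast) and 12.2 and 1.17 (erythroid). The part of these lists in the Igf2bp2 ratios of either class was not tested.

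**Figure D3:**
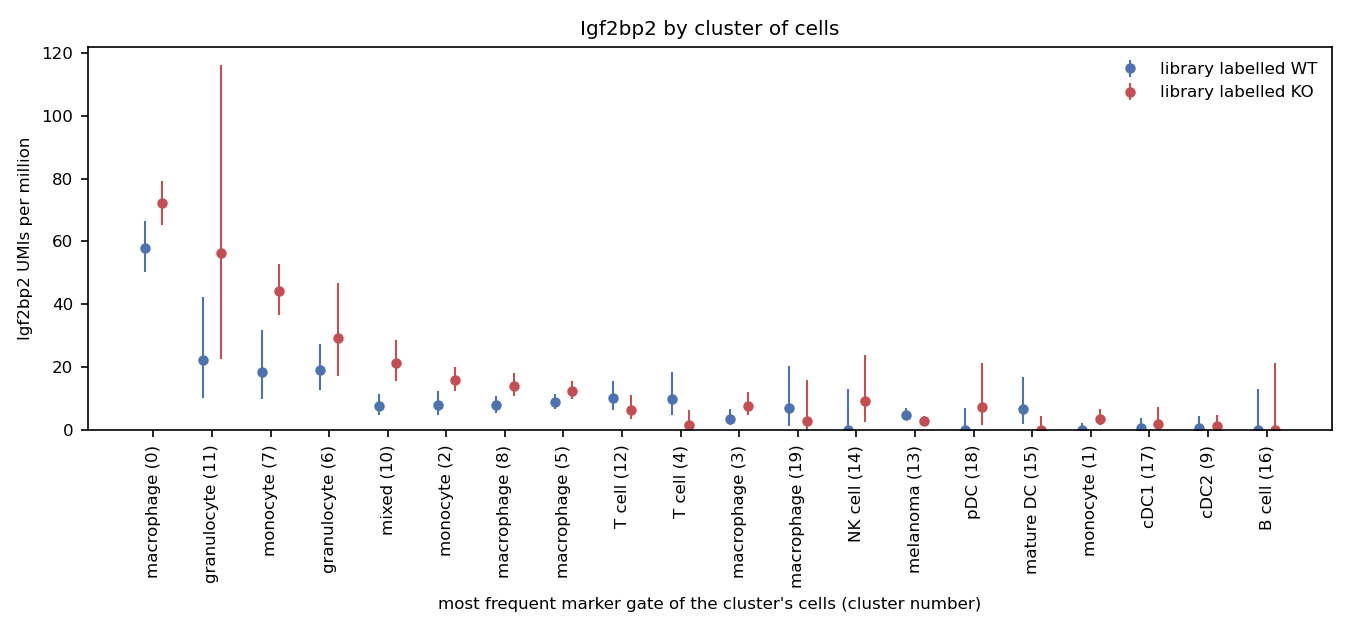
Igf2bp2 (UPM, linear axis from 0) in each cluster with at least 50 cells per library, ordered by level and named by its most frequent marker gate, with 95% exact Poisson intervals that cover counting error only; blue, WT-labelled library; red, KO-labelled library. The macrophage cluster 0, led by Mmp12, stands highest at 57.9 and 72.1, and the B cell cluster is at 0 in both.

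The other readers were arranged differently over these clusters. In macrophage-gated cells of the Mmp12 cluster Hnrnpa2b1 was at 339 and 340 UPM, its lowest of the 7 clusters that held at least 50 macrophage-gated cells per library, and Ythdf2 was at 42.0 and 57.8, its lowest of the 7 in the WT-labelled library. In the macrophage cluster led by Prc1 and Nusap1, genes of mitosis, Ythdf2 was at 71.4 (63.7 to 79.7) and 96.4 (87.1 to 106), and Hnrnpa2b1 at 577 and 615, its highest of the 7 in each library. In monocyte-gated cells Ythdf3 was at 96.5 and 101 and Ythdc2 at 37.7 and 41.9 in the cluster led by Hpgd and Ace, where Igf2bp2 was at 0 and 3.56.

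The cell cycle was then examined within classes. A cell was called cycling from 4 of 14 fixed markers such as Mki67 and Top2a, which gave 223 and 245 macrophages and 72 and 96 T cells. Cycling macrophages had more Hnrnpa2b1 than the others, 602 against 464 UPM in the WT-labelled library and 623 against 449 in the KO-labelled library, with log2 ratios of 0.38 (0.31 to 0.45) and 0.47 (0.40 to 0.54). Ythdf2 was also higher, 72.3 against 56.8 and 92.0 against 67.8, with ratios of 0.35 (0.14 to 0.55) and 0.44 (0.26 to 0.62). Igf2bp2 was lower in cycling macrophages, 6.60 against 17.9 and 15.6 against 29.0, with ratios of -1.44 (-2.11 to -0.84) and -0.89 (-1.33 to -0.48). It was the 1 of 9 readers past 1.5-fold lower, against 3.79% of 9930 genes, and 0 were past 1.5-fold higher, against 6.71%. The Mmp12 cluster, with Igf2bp2 at 62.6 and 69.4 in macrophage-gated cells, was not set apart in this contrast. Macrophage-gated cells outside it, cycling or not, had 7.91 and 14.8, and those of the Prc1 cluster 8.41 and 14.1. The part of the Mmp12 cluster in the cycling ratio of Igf2bp2 was not tested. Cycling macrophages were deeper, with a median of 15859 and 13476 UMIs against 7983 and 5899.

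In T cells the depths lay further apart, with a median of 9684 and 10817 UMIs in cycling cells against 2122.5 and 1655 in the others, and the part of depth in the ratios was not tested. Hnrnpa2b1 was at 831 UPM in cycling and 634 in other T cells of the WT-labelled library, and at 952 and 629 in the KO-labelled library, with log2 ratios of 0.39 (0.26 to 0.52) and 0.60 (0.48 to 0.71). Hnrnpc had 234 against 167 and 259 against 196, with ratios of 0.49 (0.23 to 0.74) and 0.41 (0.19 to 0.62). Ythdf3 was lower in cycling T cells, 30.6 against 51.0 and 25.1 against 59.3, with ratios of -0.74 (-1.42 to -0.11) and -1.24 (-1.85 to -0.67). Ythdc1 was lower as well, by -0.47 and -0.37. Of 6 readers tested 1 (Ythdf3) was past 1.5-fold lower, against 12.7% of 6145 genes, and 0 higher, against 7.62%. In macrophages the ratios of Ythdf3 were -0.01 (-0.28 to 0.24) and 0.03 (-0.23 to 0.29), and the difference between the classes was not tested.

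**Figure D4:**
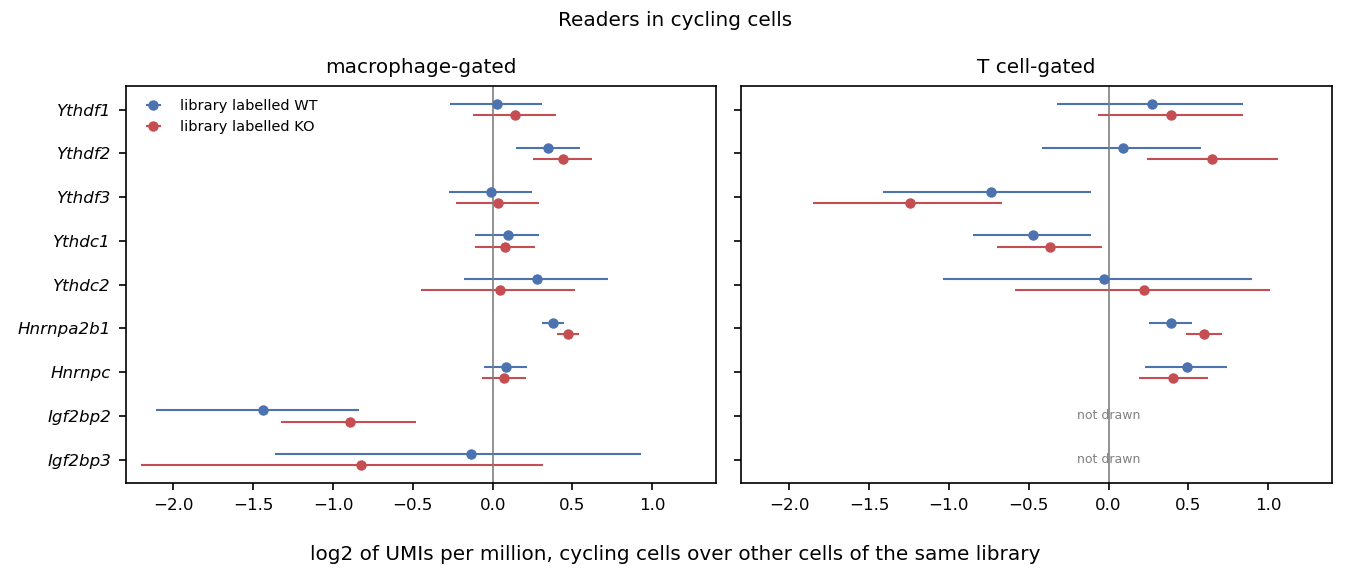
Log2 ratio of UPM in cycling over other cells of the same library, for each reader (rows) in macrophages and T cells, with 95% exact conditional binomial intervals that cover counting error only; blue, WT-labelled library; red, KO-labelled library; readers under 50 UMIs are not drawn. Hnrnpa2b1 lies right of 0 in both classes and both libraries, Igf2bp2 left of 0 in macrophages, and Ythdf3 left of 0 in T cells.

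T cells were also split by Cd8a or Cd8b1 against Cd4, which gave 369 and 383 CD8 and 73 and 127 CD4 cells. Ythdf1 in CD4 cells of the KO-labelled library was at 71.0 UPM (50.01 to 97.9) and in CD8 cells at 48.4 (39.4 to 58.8), and in the WT-labelled library at 28.6 from 7 UMIs and 41.3. Hnrnpa2b1 was at 698 (663 to 733) and 803 (765 to 843) in CD8 cells, and at 749 (644 to 866) and 685 (616 to 760) in CD4 cells. The order of the 2 subsets was not the same in both libraries for either gene. Ythdc1 was higher in CD4 than in CD8 cells of both, 135 against 116 and 131 against 86.8, with intervals apart in the KO-labelled library only. Ythdf3 was also higher in CD4 cells of both, 65.5 against 38.5 and 44.1 against 36.4, with overlapping intervals. Hnrnpc was higher in CD8 cells of both, 196 against 172 and 228 against 219, with overlapping intervals.

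Which genes had a pattern over the classes most like each reader was asked with Pearson's r of log2(UPM + 1) over the 22 points of 11 classes and 2 libraries, among 8964 genes. The points share library, depth and free RNA, and the values are descriptions. Hnrnpa2b1 was nearest to Naa15 (r = 0.95), Dhx9 (0.94) and Pdcd11 (0.93), and Ythdc1 to Rb1cc1 (0.92), Chd2 (0.92) and Rbm5 (0.90). Igf2bp2 was nearest to Rab20 (0.89), Fam20c (0.87) and Plin2 (0.83), and Ythdf1 to Dlst (0.87), Emc10 (0.84) and Tm9sf3 (0.83). Ythdc2 had Ccnc (0.84), Pdk3 (0.83) and Sephs1 (0.81), Ythdf2 Nans (0.84), Edf1 (0.80) and Eif1ax (0.80), and Ythdf3 Cmpk2 (0.80), Tmem251 (0.79) and Arnt (0.79). Igf2bp3 had Mapk8ip1 (0.80), Fbxw4 (0.78) and Plod2 (0.75). Hnrnpc, the most even reader, had no gene above the r of 0.65 with 1500009L16Rik.

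The rest of the m6A pathway was set between the libraries in macrophages, where 2.47% of all genes were past 1.5-fold higher and 1.94% lower, so that counts of 0 in lists of this size are near the background. Of the 13 writers and erasers tested, 0 were past 1.5-fold in either direction, with a median log2 ratio of 0.07 and a range from -0.21 (Rbm15b) to 0.22 (Virma). Among them the eraser Fto was at 23.1 and 26.7 UPM and the writer subunit Mettl14 at 12.0 and 11.9. Of 11 other readers 0 were past the fold, with a median of 0.02, from Fxr1 (-0.20) to G3bp1 (0.20). None of the 14 CCR4-NOT and decay factors (0 of 14, median 0.02) and none of the 23 other heterogeneous nuclear ribonucleoproteins (0 of 23, median -0.06) was past it. The 9 readers had a median of 0.23, which was 0.12 when thinned and 0.029 with equal weight for each cell, and 1 gene past the fold, Igf2bp2, or 0 with equal weight for each cluster.

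Of the other readers, 6 gene models lie at chr2:180904377-180920949 (Ythdf1, minus strand), chr4:132184912-132212303 (Ythdf2, minus), chr3:16183212-16217037 (Ythdf3, plus), chr5:86804221-86836659 (Ythdc1, plus), chr6:51460932-51469894 (Hnrnpa2b1, minus) and chr14:52073377-52104028 (Hnrnpc, minus). An exon of Ythdc1 overlaps an exon of the noncoding gene Gm43055 on the same strand, so reads there could be counted for neither gene. Reads of Hnrnpa2b1 and Hnrnpc that match another copy in the genome equally well could be lost from their counts, which was not examined.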

How the data were processed

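Live CD45+ cells of B16 tumours were profiled with the Chromium 3' v3 chemistry in 1 library per genotype. The authors deposited 1 matrix of raw UMI counts per gene and cell for both libraries, made with Cell Ranger 4.0.0 (file header) on mm10, and barcodes were tied to libraries through an accompanying list of library names. Every barcode had at least 500 UMIs. Whether depth was equalised when the libraries were joined is not given in the sources used here. The study pooled several mice per library. Barcodes with at least 200 genes and at most 10% mitochondrial UMIs were kept, and the highest Scrublet scores were removed at 0.8% per 1000 barcodes (256 and 532 barcodes), since the automatic call marked 1 in each library.

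Cells were gated by fixed marker lists (3 of 10 markers for macrophages and monocytes, for example). A marker counted from 1 UMI, in deeper cells from 1 UMI per started 5000 UMIs. These numbers were set after looking at the data. Cells with markers of more than 1 class (391 and 281 in the libraries labelled WT and KO) were left out. Cells in no gate (589 and 979) were left out as well. These are cells under every minimum, and cells with equal numbers of macrophage and monocyte markers that passed no other gate. Clusters came from scanpy 1.11.5 and leidenalg 0.10.2 (2000 variable genes, 30 components, 20 neighbours, resolution 1). In the alternative that took classes from clusters, each cluster took its most frequent gate, a rule set after a first rule had named a dendritic cell cluster as monocytes. The description of readers by cluster, inside and outside the cluster in which Igf2bp2 was highest, and in CD8 and CD4 cells was also added after values were seen. UMIs were summed per library and class. Levels have exact Poisson intervals and log2 ratios exact conditional binomial ones, at 95% (scipy 1.17.1). A gene counted as past 1.5-fold only with at least 50 UMIs. Intervals and ratios were computed on counts drawn from a Poisson model, as a check of the calculation. Such counts leave out unevenness between cells, so they cannot tell how well the intervals hold for these data.

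The readers and the gene lists were chosen with earlier results of these data known. Named besides the 9 readers were Mettl3, Lyz2, the 3 genes with the most similar class pattern per reader, the extremes of the fixed lists, and, chosen after their values were seen, Igf2bp1, Fto, Mettl14 and the leading genes of clusters. Gene models are from GENCODE M21 and promoters from RefSeq. The alternatives tried were other scalings, thinning, cell filters, gates, clusters and doublet handling.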

Additional observations from a re-analysis of the deposited data

How the results depend on the processing

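With 1 library per genotype no replicate could be left out, and sampling of mice is not covered by any interval. No paired analysis was possible because each genotype has 1 library. Igf2bp2 was higher in the KO-labelled library in macrophages under all 13 alternatives (3 of them chosen after seeing the data: equal weight for each cluster, leaving out the cluster in which Igf2bp2 was highest, and markers counted from 1 UMI at any depth), with log2 ratios from 0.47 to 0.90, and in monocytes from 0.61 to 1.65. The count of readers past 1.5-fold in macrophages, 1 as reported, was 0 at 2-fold, 0 with equal weight for each cluster and 2 when cells were thinned to 1000 UMIs (Igf2bp2 higher and Ythdc2 lower in the KO-labelled library, the latter by a log2 ratio of -0.63 from 30 and 25 UMIs), and 1 in the others. The median log2 ratio of the readers in macrophages, 0.23 as reported, was 0.12 thinned and 0.029 with equal weight for each cell. Ythdf1 stayed between 0.17 and 0.37. The number of readers past 1.5-fold higher in T cells than in macrophages in both libraries, 1 as reported, was 3 without mitochondrial, ribosomal protein and haemoglobin genes in the total, and 0 with size factors, with equal weight for each cell and when thinned. The number of readers with a log2 ratio above 0 in cycling over other macrophages of both libraries was 6, of which only Hnrnpa2b1 and Ythdf2 had intervals that left out 0, and it was 2 when thinned, where few UMIs remain. The number of readers whose highest class was the same in both libraries, 5 of 9 as reported over 11 classes, was 3 without those genes in the total, 3 when thinned, 2 with classes from clusters, 3 with the stricter gate, 1 without cycling cells and 3 with markers counted from 1 UMI at any depth. Over 4 classes alone (macrophages, monocytes, T cells and melanoma-gated cells, without the granulocytes), a summary chosen after the instability of the first was seen, it was 7, and 5 to 8 under the 11 alternatives. Among ratios whose interval left out 0, direction turned for Ythdf1 in T cells over macrophages of the KO-labelled library when thinned (-0.045, against 0.28) and for Hnrnpa2b1 in T cells between the libraries without cycling cells (-0.011, against 0.13). The cause was not tested. Of 777 values of single readers under the alternatives, 713 lay inside the counting interval of the reported value. In all 72 had the opposite sign, 70 of them for ratios whose interval holds 0, such as Ythdf1 in T cells over macrophages of the WT-labelled library (-0.79 when thinned, against 0.25). Depth limits Igf2bp3, Ythdc2 and the 6 small classes, where a reader often had under 50 UMIs.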
